A study of Homo sapiens with 6 samples.

Results

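The genes described here encode proteins of the nucleolus that modify, fold and assemble ribosomal RNA. They were NPM1, NCL, FBL, NOP56, NOP58, DKC1, NHP2, GNL3, NOLC1 and RRP9, and they were followed as mRNAs in EVs released by CD47- and WT Jurkat T cells. A probe set was used where the platform annotation listed it with exactly 1 gene symbol and that symbol was on this list. By this rule 8 of the 10 genes were measured, through 12 of the 19460 single-symbol probe sets among 33297 probe sets in all. NOP56 was listed only together with a small nucleolar RNA, and the symbol GNL3 was not found in the annotation used here.
The CD47- EVs came from JinB8 cells, a somatic mutant of Jurkat that lacks CD47, and the EVs they were set against from the parental WT line Jurkat, established from a human T cell leukemia. There were 3 EV preparations of each, made with Exo-quick or Exo-spin, and the labels do not say which was used for which. All cells were grown for 24 to 48 h in a serum-free defined medium, and 300 ng of total EV RNA was labeled for each whole-transcript human gene array. JinB8 is a single mutant line, so the loss of CD47 and any other change of that line cannot be told apart. The labels do not say that the replicates of a line were separate cultures, and p values measure only the spread between these arrays.

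Ribosomes begin in the nucleolus, where RNA polymerase I transcribes the precursor of the large ribosomal RNAs. Box C/D ribonucleoproteins then methylate ribose residues of the precursor and box H/ACA ribonucleoproteins convert uridine to pseudouridine. Each is guided by a small nucleolar RNA (snoRNA). Further factors cleave the precursor and fold it with ribosomal proteins into both subunits. Genes of this program are strongly expressed in growing lymphoid and leukemic cells, and several of them carry snoRNAs within their introns. The arrays read the mRNAs of these proteins and not the proteins.

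Values are log2 values of robust multi-array average (RMA), the method by which the submitters corrected background, equalized the arrays and summarized probes. A difference is CD47- minus WT on this log2 scale and is a relative level within the labeled RNA. Fewer EVs that carry a transcript and fewer copies in each EV cannot be told apart. The array medians lay between 5.08 and 5.14, and between arrays r across genes was 0.981 to 0.989. CD47 itself read 4.58, 4.67 and 4.94 in CD47- EVs, against 4.72, 4.69 and 4.72 in WT EVs. These values overlap, so the CD47 probe set does not check the labels. Olfactory receptor genes served as a rough gauge of background, rough because probe sets differ in how well they bind. The 338 olfactory receptor genes had a median of 5.49, and 8 of 11 T cell markers lay above it. CD2, CD28 and ZAP70 were the T cell markers below it. Above it too were 2 of 4 B cell, 2 of 5 myeloid and 3 of 4 erythroid markers. The same held for 3 of 5 platelet, 2 of 5 liver and 3 of 5 epithelial markers. Above the olfactory receptor 95th percentile of 6.79 lay 2 of 11 T cell markers and 1 of 28 markers of other cell types. The mean T cell marker level was 6.12 to 6.17 in CD47- EVs, against 5.95 to 6.08 in WT EVs, so the groups did not overlap, with none of the 11 called and 3 at an unadjusted p under 0.05 (limma). The mean level of 28 markers of other cell types was 5.42 to 5.46 in CD47- EVs, against 5.43 to 5.51 in WT EVs, and none was called (limma, with 1 at an unadjusted p under 0.05). The part of cell type markers in the results below was not tested.

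No nucleolar gene passed the test, and the differences of all 8 were small. FBL, DKC1, NPM1 and NCL were the genes whose 3 CD47- arrays all lay above the 3 WT arrays. The differences between their group means were 0.20 to 0.33 on the log2 scale. The gaps between the nearest arrays were smaller, as for NCL with 5.81 in CD47- EVs against 5.78 in WT EVs. NOP58, NHP2, NOLC1 and RRP9 lay within 0.10 of no difference and overlapped between the groups. By mean level 5 of the 8 genes lay above the olfactory receptor median, and 2 of these (NPM1 and FBL) above the 95th percentile. DKC1, NHP2 and NOLC1 lay below the median, so by this gauge their signals were low. With limma over 18417 genes, 0 of the 8 were called higher and 0 lower at an adjusted p under 0.05, where 0.668% of all genes were higher and 0.0163% lower. Without adjustment (p under 0.05), 4 of the 8 lay higher and 0 lower, beside 5.16% and 2.87% of all genes. The same 4 genes had arrays that did not overlap, which held for 7.3% of all genes upward and 5.53% downward. Their count at the unadjusted threshold changed when 1 array was left out, which also leaves fewer arrays to the test. It was 1 (FBL) without CD47- replicate 3, 2 (FBL and DKC1) without WT replicate 3 and 3 or 4 without any other array. Without CD47- replicate 3 the NCL difference was 0.19 and its standard error 0.093, against 0.20 and 0.080 with all arrays.
The median difference of the 8 genes was 0.15, beside 0.0029 for all genes, and 7 of 8 were above 0, beside 9444 of all 18417 genes. The 95% intervals of the 8 differences ran together from -0.22 to 0.51, so no interval held a change as large as the 0.65 that was the median of the 123 genes called higher. The smallest difference among those called genes was 0.36, larger than that of every nucleolar gene measured. Called genes were picked in these same arrays, in part by the size of their difference. The 0.65 and 0.36 are therefore no independent scale for genes that were not called. Each WT array held the lowest value of at least 1 of the 8 genes, WT replicate 2 that of 3 genes. CD47- replicate 3 held the highest value of 3 genes.

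**Figure D1:**
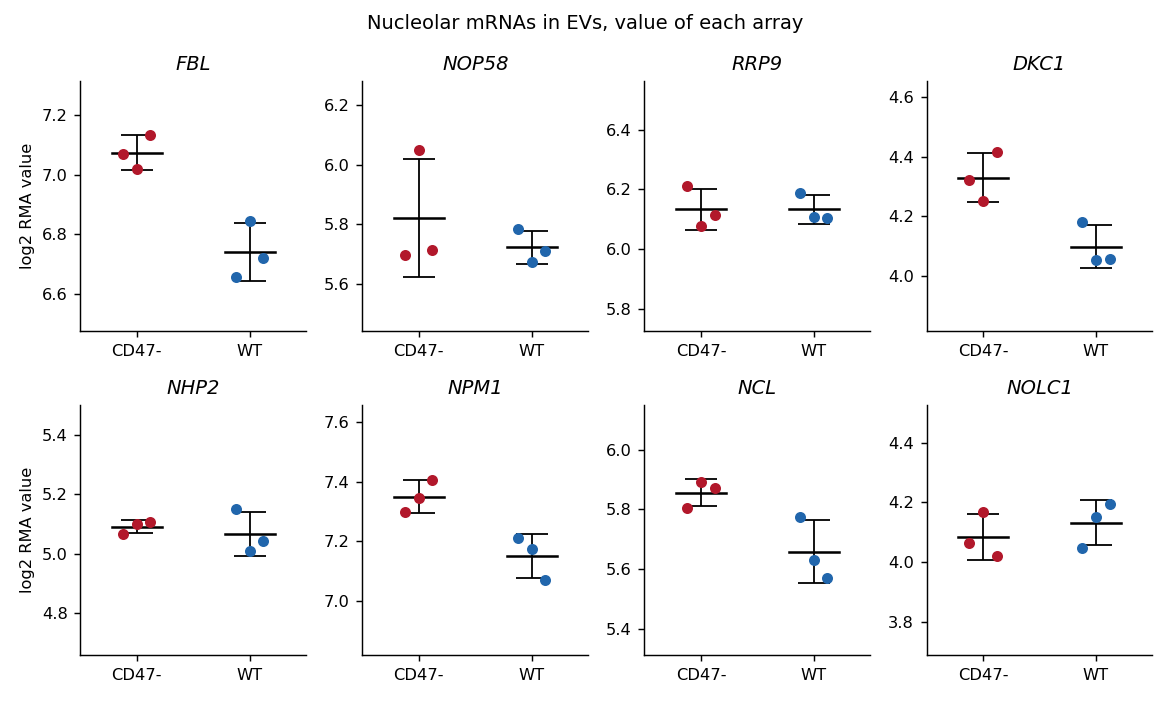
log2 RMA value (vertical axis, the same span of 0.84 in every panel) of 8 nucleolar genes in the 3 CD47- (red) and 3 WT (blue) EV arrays, with the mean and SD of each group. The CD47- arrays of FBL, DKC1, NPM1 and NCL all lie above the WT arrays, while the groups of NOP58, RRP9, NHP2 and NOLC1 overlap.

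Among the box C/D proteins, fibrillarin showed the clearest separation. FBL, the ribose methyltransferase of these particles, read 7.07, 7.02 and 7.13 in CD47- EVs, against 6.66, 6.85 and 6.72 in WT EVs. The highest WT array stayed below the lowest CD47- array. The means were 7.07 ± 0.06 and 6.74 ± 0.10 (SD, n = 3 each), a difference of 0.33 (standard error 0.08, 1.26-fold, 95% interval 1.12 to 1.42). FBL did not pass (adjusted p = 0.104 from limma, unadjusted 0.00117), and 206 genes had a smaller p. When only the 7222 genes with a mean above the olfactory receptor median were tested, FBL was called (adjusted p = 0.0412 from limma, with a range of 0.0412 to 0.349 over the alternatives).
NOP58, a core scaffold protein of the same particles, read 5.70, 6.05 and 5.71 in CD47- EVs, against 5.78, 5.67 and 5.71 in WT EVs. Only CD47- replicate 2 lay apart. Its difference of 0.10 (95% interval -0.12 to 0.31) became -0.02 without that array.
RRP9, a protein particular to the U3 snoRNP that directs early cleavage of the precursor, read 6.21, 6.08 and 6.11 in CD47- EVs, against 6.19, 6.11 and 6.11 in WT EVs. The groups overlapped throughout, with a difference of 0.00091 and a 95% interval from -0.16 to 0.16, and its sign changed under 5 of 15 alternatives. NOP56, the partner of NOP58, could be read only through a probe set shared with SNORD56, a snoRNA of its own intron. That probe set read 4.71, 4.62 and 4.84 in CD47- EVs, against 4.67, 4.68 and 4.55 in WT EVs, and cannot be assigned to either gene.

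Sequence around the start sites of FBL and RRP9 is shown because these box C/D genes had the motif CACGTG in the windows searched. RefSeq promoter windows (GRCh38.p14, 250 bases before to 50 after the start) were found for 8 of the 10 genes. These 8 are not the 8 measured genes, since they include NOP56 and GNL3 and lack NOP58 and NOLC1, which were not searched. Searched on both strands, the E-box CACGTG, bound by MYC among other factors, was in the windows of FBL and RRP9 alone among the 8, and in 8.34% of 22199 windows of protein-coding genes. GGGCGG was in 7 of 8 (56.3% of all), CCAAT in 6 of 8 (34.7%) and TATAAA in 0 of 8 (9.47%). Both stretches run from base -110 to base 15, with the motifs in capitals. FBL lies on the minus strand at chr19:39846365-39846489 with its E-box at bases 7 to 12 of the transcript, and RRP9 on the minus strand at chr3:51941890-51942014 with its E-box from base -5 to base 1, counted from 1 at the start with no base 0.
FBL: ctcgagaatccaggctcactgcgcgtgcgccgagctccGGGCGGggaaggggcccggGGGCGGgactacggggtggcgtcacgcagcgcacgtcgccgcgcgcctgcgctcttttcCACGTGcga
RRP9: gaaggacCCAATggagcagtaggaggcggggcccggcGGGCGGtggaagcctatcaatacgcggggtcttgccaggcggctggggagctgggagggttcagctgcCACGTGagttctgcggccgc
The sequences hold an E-box near the start and GGGCGG upstream in both genes, beside a difference of 0.33 for FBL and 0.00091 for RRP9. Whether the FBL and RRP9 differences differ from each other was not tested. Whether a factor acts at these letters was not measured.

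Of the box H/ACA proteins, DKC1 separated and NHP2 did not. DKC1, the pseudouridine synthase dyskerin, read 4.32, 4.25 and 4.41 in CD47- EVs, against 4.18, 4.05 and 4.06 in WT EVs. WT replicate 1 was the highest WT array and lay just below CD47- replicate 2. The difference was 0.23 (standard error 0.08, 1.17-fold, 95% interval 1.04 to 1.32), and it did not pass (adjusted p = 0.358 from limma). By the gauge of background this signal was low, since 14.2% of the olfactory receptor genes had a smaller mean. Another 2 probe sets list DKC1 together with snoRNAs of its introns. The set shared with SNORA36A and MIR664B had a difference of 0.09 and the set shared with SNORA56 of -0.15.
NHP2, an RNA-binding core protein of the H/ACA particle, read 5.07, 5.10 and 5.11 in CD47- EVs, against 5.15, 5.01 and 5.04 in WT EVs. WT arrays lay on both sides of the CD47- arrays. Its difference was 0.02 (95% interval -0.14 to 0.18), and -0.0057 without WT replicate 2. A second NHP2 probe set gave 0.12, also with overlapping groups, and RefSeq lists 2 NHP2 pseudogenes that probes can share.

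NPM1 and NCL, the most abundant proteins of the nucleolus, had nearly equal differences. NPM1, nucleophosmin, a chaperone of histones and ribosomal proteins that is often mutated in acute myeloid leukemia, was read by 4 probe sets. The probe set with the highest mean read 7.30, 7.35 and 7.41 in CD47- EVs, against 7.21, 7.17 and 7.07 in WT EVs. The difference was 0.20 (standard error 0.08, 1.15-fold, 95% interval 1.02 to 1.29) and did not pass (adjusted p = 0.468 from limma).
Another 2 NPM1 probe sets, each annotated with a different RefSeq transcript of the gene, gave 0.18 and 0.26. The larger value came from 7.11, 7.19 and 7.23 in CD47- EVs, against 6.93, 6.96 and 6.85 in WT EVs, and it did not pass either (adjusted p = 0.214 from limma over the single-symbol probe sets). In each of these 3 probe sets the CD47- arrays lay above the WT arrays. They read the same gene in the same arrays and are not independent. The remaining NPM1 probe set gave 0.05, with 5.74, 5.82 and 5.56 in CD47- EVs, against 5.56, 5.81 and 5.60 in WT EVs. RefSeq lists 50 NPM1 pseudogenes, and probes shared with them cannot be separated from NPM1 here.
NCL, nucleolin, which binds the ribosomal RNA precursor and histones, read 5.81, 5.89 and 5.87 in CD47- EVs, against 5.78, 5.63 and 5.57 in WT EVs. WT replicate 1 was the highest WT array and lay just below CD47- replicate 1. Its difference was 0.20 (standard error 0.08, adjusted p = 0.511 from limma).
NOLC1, a phosphoprotein that accompanies snoRNPs between Cajal bodies and the nucleolus, read 4.06, 4.17 and 4.02 in CD47- EVs, against 4.05, 4.15 and 4.20 in WT EVs. It was the gene of the 8 with a difference below 0, -0.05 (95% interval -0.22 to 0.12), and this became 0.01 once each array was centered on its olfactory receptor genes. No value was obtained for GNL3, the GTPase nucleostemin.

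**Figure D2:**
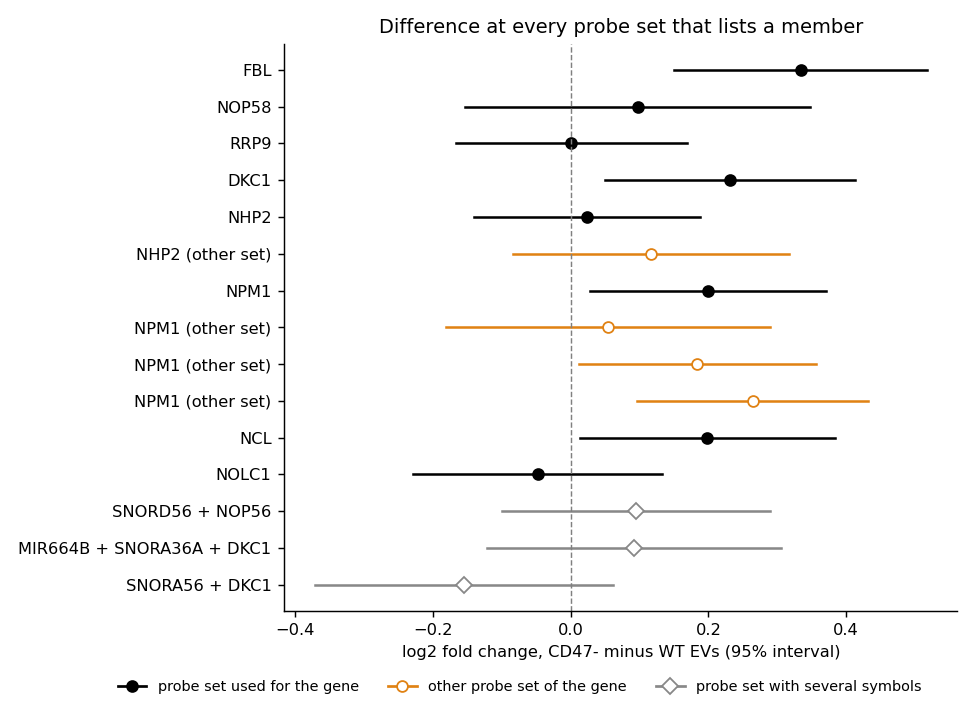
Difference CD47- minus WT on the log2 scale (horizontal axis) with its 95% interval for the 12 single-symbol probe sets of the nucleolar genes (black where used for the gene, orange otherwise) and 3 probe sets that list a nucleolar gene with other symbols (grey diamonds), from a limma fit over all 33297 probe sets. The interval of FBL lies farthest from 0, and the intervals of 3 of the 4 NPM1 probe sets lie wholly above 0.

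Several of these genes host snoRNAs. RefSeq places 19 snoRNA genes and 2 microRNA genes within NCL, NOP56, NOP58, DKC1 and GNL3, and 5 of the snoRNAs had a probe set of their own. None of the 5 was called, 1 had an unadjusted p under 0.05 (limma), and no snoRNA had all CD47- arrays on a single side of the WT arrays. The snoRNAs within NCL are SNORA75, SNORD20 and SNORD82, and their differences were -0.10, 0.08 and -0.07, beside 0.20 for NCL itself. SNORA75 read 3.55, 3.78 and 3.56 in CD47- EVs, against 3.83, 3.55 and 3.82 in WT EVs.
SNORD57, a box C/D snoRNA within NOP56, had the largest difference of the 5, at -0.27. It read 6.47, 6.74 and 6.63 in CD47- EVs, against 7.00, 6.92 and 6.72 in WT EVs. CD47- replicate 2 lay just above WT replicate 3, and the gene did not pass (adjusted p = 0.399 from limma). SNORA51, also within NOP56, had a difference of -0.01, which was 0.05 after the centering on olfactory receptor genes. Whether host and snoRNA differences differ from each other was not tested.

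The wider program of ribosome assembly was read through 10 lists of genes grouped by complex. Apart from the members they held 176 genes, of which 170 were measured. Of these, 3 were called higher and none lower, 21 lay higher and 1 lower by an unadjusted p under 0.05, and 125 had a difference above 0. Over all 18417 genes, 0.668% were called higher and 0.0163% lower, 5.16% lay higher and 2.87% lower by the unadjusted p, and 9444 had a difference above 0. The median difference of the 170 genes was 0.05, beside 0.0029 for all genes.
RPL5, a ribosomal protein of the large subunit that joins its own small ribosomal RNA before assembly, was higher in CD47- EVs. It read 9.36, 9.52 and 9.52 in CD47- EVs, against 8.84, 8.95 and 8.70 in WT EVs. The difference was 0.64 (standard error 0.09, 1.56-fold, adjusted p = 0.00387 from limma), and RPL5 was called under all 15 alternatives. Its other probe sets gave 0.68 and 0.86, and RefSeq lists 35 RPL5 pseudogenes that probes can share.
UTP4, a protein of the small subunit processome that links transcription of the precursor to its cleavage, read 5.47, 5.31 and 5.67 in CD47- EVs, against 4.93, 4.95 and 4.89 in WT EVs. Its difference was 0.56 (standard error 0.09, adjusted p = 0.0134 from limma), and it was not called without CD47- replicate 3, WT replicate 1 or WT replicate 3. The UTP4 group means of 5.48 and 4.92 lay below the olfactory receptor median of 5.49. POLR2H, a subunit shared by the nuclear RNA polymerases, read 6.39, 6.10 and 6.44 in CD47- EVs, against 5.86, 5.73 and 5.57 in WT EVs. Its difference was 0.59 (standard error 0.10, adjusted p = 0.0225 from limma), and it was not called without CD47- replicate 1 or 3 or without WT replicate 2 or 3. UTP4 and POLR2H were not called either when all 33297 probe sets were tested together, with adjusted p of 0.0737 and 0.114 from limma.

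In the box C/D list the 3 measured genes of 5 were FBL, NOP58 and RRP9 themselves, so no further core protein of that particle was read. In the box H/ACA list NOP10 and GAR1 stood beside DKC1 and NHP2, and neither passed. NOP10, a small H/ACA protein, had a difference of 0.14 that became -0.04 without CD47- replicate 3. GAR1, the remaining H/ACA protein, was picked for mention after its value was seen and had a difference of 0.02.
Among 11 snoRNP assembly factors none passed, 1 had an unadjusted p under 0.05 (limma), and the median was 0.05. RUVBL2, an ATPase of the complex that loads snoRNP proteins, had a difference of 0.27 and its partner RPAP3 of 0.13 (adjusted p = 0.358 and 0.751 from limma). These were the 2 of the 11 genes whose CD47- arrays all lay above the WT arrays, which held for 7.3% of all genes. In the nucleoplasmin family NPM2 gave -0.10 (adjusted p = 0.863 from limma), beside 0.20 for NPM1. In the nucleostemin family GNL2 and GNL3L gave 0.11 each (adjusted p = 0.838 and 0.821 from limma). The groups of NPM2, GNL2 and GNL3L overlapped. The medians were 0.02 over 3 nucleoplasmin genes and 0.05 over 5 nucleostemin genes, with none called.
Of 45 genes of the small subunit processome, UTP4 was called and the median was 0.05. By an unadjusted p under 0.05 (limma), 3 of the 45 lay higher and 1 lower, beside 5.16% and 2.87% of all genes. Of 50 genes of large subunit assembly none was called, 6 lay higher and 0 lower by an unadjusted p under 0.05 (limma), beside 5.16% and 2.87% of all genes, and the median was 0.05. WDR74 and NSA2, both factors of nucleolar large subunit particles, had differences of 0.33 and 0.34 (adjusted p = 0.208 and 0.217 from limma). NSA2 was called after the centering on olfactory receptor genes (adjusted p = 0.0483 from limma, with a range of 0.0483 to 0.511 over the alternatives).
RNA polymerase I and its factors had a median of 0.04 over 21 genes with POLR2H called. By an unadjusted p under 0.05 (limma), 5 of the 21 lay higher and 0 lower, beside 5.16% and 2.87% of all genes. The rRNA processing nucleases had a median of 0.03 over 25 genes with none called (limma, with 2 at an unadjusted p under 0.05), and the smallest p values belonged to the exosome helicase MTREX, with a difference of 0.22, and the exosome subunit EXOSC2, with a difference of 0.20. The list of import factors and of proteins of the 5S particle had the highest median of the 10 lists, 0.23 over 10 genes, with RPL5 called. By the unadjusted p (limma), 4 of these 10 lay higher and 0 lower, beside the same shares of all genes. NAP1L1, a histone chaperone in this list that was picked for mention after its value was seen, had a difference of 0.66 but a wide WT spread, with 5.29, 5.41 and 5.31 in CD47- EVs, against 4.68, 5.06 and 4.27 in WT EVs (adjusted p = 0.088 from limma). NAP1L1 was called after the centering on olfactory receptor genes and without WT replicate 2. RPL11, the ribosomal protein beside RPL5 in this list, was also picked for mention after its value was seen. Its difference was 0.27 with overlapping groups (adjusted p = 0.771 from limma).

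**Figure D3:**
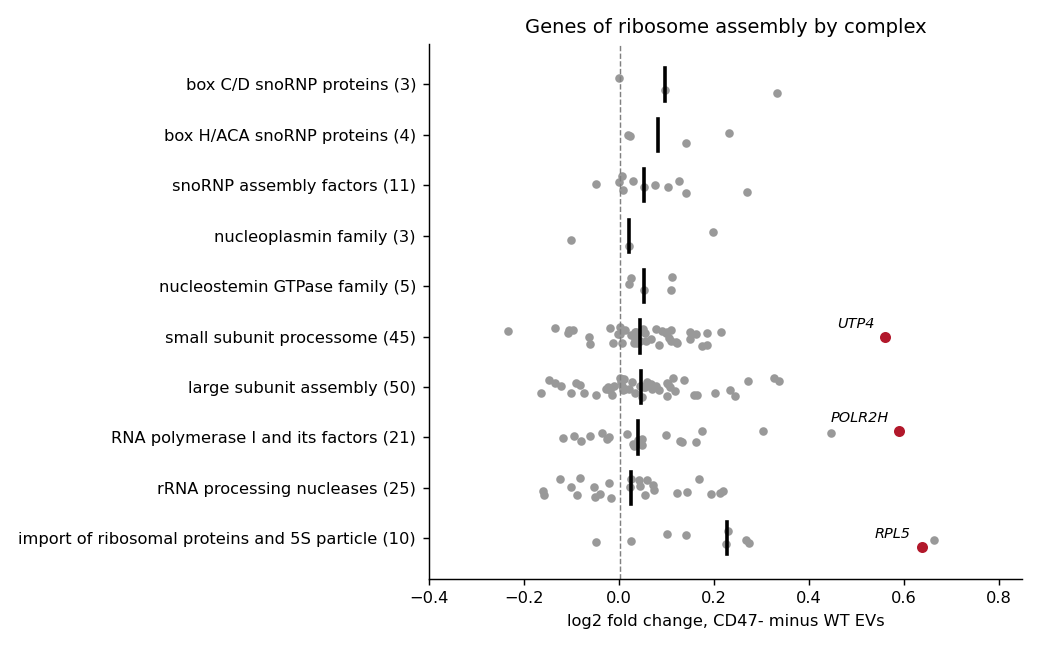
Difference CD47- minus WT on the log2 scale (horizontal axis) for each measured gene of 10 lists of ribosome assembly, with the number measured in parentheses, the median of each list (black bar) and the median of all genes (dashed line). The called genes (red) are UTP4, POLR2H and RPL5, and the medians of the 10 lists lie between 0.02 and 0.23.

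**Figure D4:**
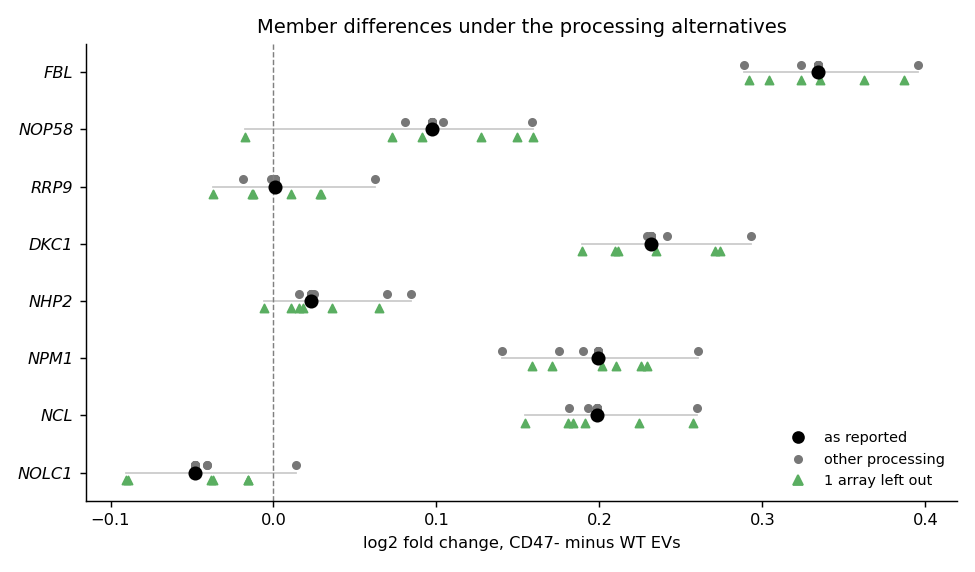
Difference CD47- minus WT on the log2 scale (horizontal axis) of the 8 nucleolar genes as reported (black), under the other processing alternatives (grey) and with 1 array left out (green triangles). FBL ranged from 0.29 to 0.40, DKC1 from 0.19 to 0.29, NPM1 from 0.14 to 0.26 and NCL from 0.15 to 0.26, while NOP58, NHP2, NOLC1 and RRP9 each lay on both sides of 0.

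The 4 genes whose arrays separated stayed above 0 under each of the alternatives run for them. The other 4 did not keep a direction. For genes picked by that separation, leaving out 1 array cannot change the sign. The replicate block and the trend and robust variance leave the difference itself unchanged. The contrast between the 4 genes and the other 4 is therefore in part fixed by how they were picked.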

How the data were processed

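RNA of 3 CD47- and 3 WT EV preparations was measured on Affymetrix arrays. Per the labels, the deposited log2 values were made by the authors with RMA in Affymetrix Expression Console, its version being not given in the sources used here. This method subtracts background, equalizes the arrays' distributions of probe values and gives 1 value per probe set. The deposited values still differed in distribution, with array medians of 5.08 to 5.14. A further quantile normalization changed the RPL5 difference from 0.64 to 0.48. Depth does not apply, and the number of arrays limits the precision. Gene symbols came from the platform annotation. Where a gene had several (769 genes), the set with the highest mean stood for it. Differences were fitted with limma 3.58.1 in R 4.3.3 (lmFit, eBayes) and p values adjusted by Benjamini-Hochberg over 18417 genes. No filter on signal was applied, but the 1754 probe sets with several symbols and the 12083 with no gene were left out of this fit. The fit was tested on simulated data.

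The members and lists were chosen with earlier results of these data known. Named were all members, snoRNAs within them, CD47, and per list the genes that passed, or else the 2 with the smallest p. The same replicate number was checked for pairing, and the correlations of deviations (0.02, -0.02 and -0.04) gave none. Alternatives were a replicate block, centering on olfactory receptor genes, a further quantile normalization, trend and robust variance, weights per array, testing brighter genes alone, other uses of probe sets, leaving out each array and an adjusted p under 0.1. Gene positions come from RefSeq on GRCh38.p14, while the array values name no build.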

Additional observations from a re-analysis of the deposited data

How the results depend on the processing

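No nucleolar gene was called under 15 of the 16 alternatives, and 1 (FBL) was called when only genes above the olfactory receptor median were tested, where fewer genes share the adjustment. Of all genes, 126 were called. That count was 244 after centering on the olfactory receptor genes, 45 when all probe sets were tested together, 205 at an adjusted p under 0.1 and 54 to 101 with 1 array left out (79 when CD47- replicate 2 was dropped, 59 when CD47- replicate 3 was and 54 when WT replicate 3 was). The centering moved the median of all genes to 0.06 and that of the 8 nucleolar genes to 0.21, with 8 of 8 above 0. The further quantile normalization moved these medians to -0.005 and 0.11, with 6 of 8 above 0. Under it 3 of the 8 (NCL, FBL and DKC1, not NPM1) had an unadjusted p under 0.05 (limma). Of the 177 measured genes of the lists, 3 were called, against 7 after that centering, 5 at an adjusted p under 0.1, 1 when all probe sets were tested together and 1 to 3 with 1 array left out (1 without CD47- replicate 3 and 1 without WT replicate 3). With the replicate number as a block, 5 of the listed genes (NAP1L1 among them), 0 nucleolar genes and 109 of all genes were called, and the arrays share only a number. The causes of these changes were not tested, apart from the smaller number of genes or arrays where a setting itself reduces it. Dim signals such as those of DKC1, NHP2 and NOLC1 limit what a probe set can show. Of the 177 measured genes of the lists, 55 had a mean above the olfactory receptor median.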
